A study of Homo sapiens with 6 samples.

Results

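The 10 genes described here encode 9 apolipoproteins (APOA1, APOA2, APOA4, APOA5, APOB, APOC3, APOE, APOH and APOM) and MTTP, the microsomal triglyceride transfer protein. They were chosen by symbol from the 60605 rows of the deposited gene table; each symbol had 1 row, and all 10 were among the 12829 genes tested. RNA was sequenced from Huh-7 cells, an established human hepatoma line that makes many hepatocyte proteins. Per the labels' protocols, cells given pectolinarigenin, a plant flavone, received 100 µM for 24 h (3 libraries), and control cells received the DMSO vehicle with 0 µM pectolinarigenin for 24 h (3 libraries). Both groups had first been given oleic acid (100 µM, 24 h), which makes the cells store lipid, and were starved before the treatment, so no group here lacks the lipid load. Whether replicate libraries stem from independent cultures is not stated in the labels, so p-values cover the library-to-library spread alone and that spread could be technical.

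Apolipoproteins are the protein part of lipoproteins, the particles that carry triglyceride and cholesterol in plasma. In hepatocytes MTTP loads lipid onto apolipoprotein B in the endoplasmic reticulum, which starts a very low density lipoprotein (VLDL) particle, whereas apolipoproteins A-I and A-II are the main proteins of high density lipoprotein (HDL). Smaller exchangeable apolipoproteins move between particles and regulate lipases and receptors.

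Pectolinarigenin-treated cells had 4.47-fold more APOA4 transcript and 2.12-fold more APOA2 transcript than control cells, while APOH transcript changed by -55.4% and MTTP transcript by -24.5% (log2 fold changes of 2.16, 1.08, -1.16 and -0.40 with standard errors of 0.20, 0.080, 0.080 and 0.056, from 3 libraries a group). These 4 genes passed the test (edgeR's quasi-likelihood test, Benjamini-Hochberg adjusted p under 0.05) in the fit to all libraries and in all 15 alternative fits. Their groups did not overlap in FPKM, the count scaled to gene length and library total. Nor did they in CPM, the count scaled to library total, here also with edgeR's TMM scaling factors. Such separation was common, at 58.9% of all tested genes in FPKM and 58.7% in this TMM-scaled CPM. APOB was also called lower, but its groups overlapped and the call was lost in 11 of the 15 alternatives. APOA1, APOA5, APOC3, APOE and APOM did not pass. The count was thus 2 higher, 3 lower and 5 not called, with a median log2 fold change of -0.063. Over all tested genes 25.3% were called higher and 25.3% lower, with a median of 0.00071, so the 5 calls among the 10 genes are at the background share of 50.6%. Rises and falls of at least 2-fold were rarer: 1.96% of tested genes rose and 1.92% fell by that much at an adjusted p under 0.05, and APOA4 and APOA2 were among those that rose and APOH among those that fell.

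Total counts were 15140022 to 20311261 per library, which puts a floor of 3 counts at 0.148 to 0.198 CPM, for counting error only. The first principal component separated the groups (80.0% of the variance), and the second (7.73%) placed treated library 3 (at -13.4) away from the other treated libraries (at 9.58 and 6.11). For genes named here, a call that treated library 3 decides, or a called value that moves by over 1.5 times without it, is given with that fact. The 8 hepatocyte markers examined (ALB, TTR, TF, AFP, SERPINA1, AHSG, FGB and HNF4A) were all expressed, with a summed level of 8145 to 8917 FPKM in treated libraries and 11628 to 11767 FPKM in control libraries; all 8 were called lower, with a median log2 fold change of -0.38, led by AHSG (-0.90, SE 0.065), FGB (-0.63, SE 0.059) and ALB (-0.67, SE 0.066); the call of TTR (-0.14, SE 0.055) was lost with any 1 library but treated library 3 left out. The 9 markers of other cell types summed to 31.6 to 34.0 FPKM in treated libraries and 33.0 to 34.1 FPKM in control libraries, most of it VIL1, an epithelial brush border protein that was not called (0.056, SE 0.054), while PTPRC, VWF, COL1A1, COL3A1, KRT7 and FABP2 averaged at most 0.203 FPKM in either group; CD14 and PECAM1 were called lower, at 1.97 and 1.22 FPKM in treated libraries and 2.98 and 2.47 FPKM in control libraries. For comparison with these marker calls, 25.3% of all tested genes were called lower. The part of these marker changes in the results below was not tested. In such bulk samples, fewer cells that express a gene and less RNA of it per cell cannot be told apart.

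The promoters of the 4 genes whose groups did not overlap are shown because these genes carry the differences described below. They are RefSeq sequences of build GRCh38.p14, 250 bases before to 50 bases after an annotated start, 5′ to 3′ on the gene's strand. Capitals mark every match, on either strand, to 5 motifs: the nuclear receptor core AGGTCA, the HNF4 element CAAAGTCC, the TATA box TATAAA, the dioxin response core GCGTG and the cAMP response core TGACGT. No 2 matches overlapped. The windows are chr1:161223579-161223878 (minus strand) for APOA2, chr11:116823255-116823554 (minus strand) for APOA4, chr17:66229366-66229665 (minus strand) for APOH and chr4:99574574-99574873 (plus strand) for MTTP.
APOA4: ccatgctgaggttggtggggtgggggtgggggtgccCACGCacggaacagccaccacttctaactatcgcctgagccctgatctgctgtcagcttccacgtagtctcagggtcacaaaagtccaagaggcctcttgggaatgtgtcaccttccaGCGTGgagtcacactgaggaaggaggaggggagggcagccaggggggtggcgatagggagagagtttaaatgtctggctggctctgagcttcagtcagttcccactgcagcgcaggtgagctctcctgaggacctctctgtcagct
APOA2: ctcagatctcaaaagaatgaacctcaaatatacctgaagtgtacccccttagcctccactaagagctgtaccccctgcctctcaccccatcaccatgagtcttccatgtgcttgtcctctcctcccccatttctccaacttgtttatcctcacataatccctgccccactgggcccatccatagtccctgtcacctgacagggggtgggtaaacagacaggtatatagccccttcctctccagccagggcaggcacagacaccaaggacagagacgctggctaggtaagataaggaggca
APOH: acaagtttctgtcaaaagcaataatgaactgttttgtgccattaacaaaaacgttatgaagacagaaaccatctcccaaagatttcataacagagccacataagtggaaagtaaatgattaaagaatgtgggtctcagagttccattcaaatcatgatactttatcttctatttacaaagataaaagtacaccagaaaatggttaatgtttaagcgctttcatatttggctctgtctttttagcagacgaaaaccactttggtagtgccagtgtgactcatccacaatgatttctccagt
MTTP: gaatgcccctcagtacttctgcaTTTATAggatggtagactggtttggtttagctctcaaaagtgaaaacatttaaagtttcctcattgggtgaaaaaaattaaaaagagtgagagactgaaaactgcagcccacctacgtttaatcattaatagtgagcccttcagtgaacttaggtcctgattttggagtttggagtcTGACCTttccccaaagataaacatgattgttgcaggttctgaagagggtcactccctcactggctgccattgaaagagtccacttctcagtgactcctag
The APOA4 window held GCGTG on the minus strand at position -214 and on the plus strand at -96, counted from the start site, and 36.5% of the 35116 RefSeq promoter windows hold this motif. The MTTP window held TATAAA on the minus strand at -227 (11.5% of windows) and AGGTCA on the minus strand at -50 (13.8% of windows). The window of another annotated MTTP start, chr4:99563880-99564179, held GCGTG at -147 and TGACGT at -67 (7.98% of windows), both on the minus strand. The APOA2 and APOH windows held none of these letters, and CAAAGTCC (1.2% of windows) was in none of the 4. A match describes the sequence and is not a binding site.

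**Figure D1:**
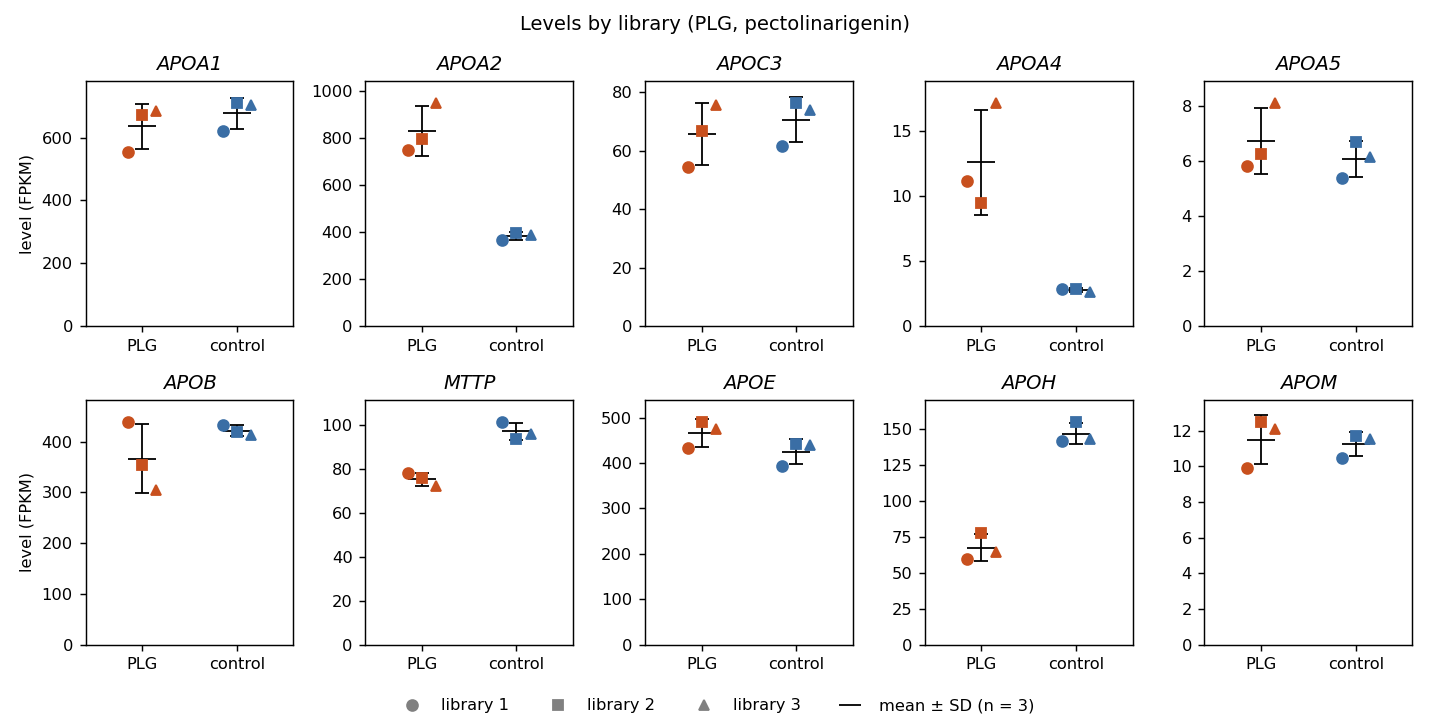
Level of each gene (FPKM, linear axes from 0) in the 3 pectolinarigenin (PLG) and 3 control libraries, with mean and SD. APOA2 and APOA4 lie wholly above the control libraries, APOH and MTTP wholly below, and the other 6 genes overlap; treated library 3 is the highest for APOA4 and the lowest for APOB.

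APOA1 and APOA2 encode the main structural proteins of HDL, and only APOA2 passed the test. APOA2 (ENSG00000158874, chromosome 1, 161222292 to 161223631, minus strand, GRCh38) had 746.4, 794.2 and 946.9 FPKM in treated libraries 1 to 3, against 364.4, 393.9 and 388.5 FPKM in control libraries 1 to 3. Every treated value was above every control value, and treated library 3 was the highest. The means were 829.2 ± 105.0 FPKM in treated and 382.3 ± 15.7 FPKM in control libraries (SD, n = 3 each). On the log2 scale APOA2 rose by 1.08, with a standard error (SE) of 0.080 (adjusted p = 9.18e-08, edgeR). Without treated library 3 it was 0.97.

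APOA1 (ENSG00000118137, chromosome 11, 116835751 to 116837950, minus strand), whose protein activates the cholesterol-esterifying enzyme LCAT, had 553.7, 671.5 and 684.5 FPKM in treated libraries, against 621.0, 709.5 and 703.5 FPKM in control libraries. The groups overlapped, with library 1 the lowest in both. Its log2 fold change was -0.13 (95% interval -0.30 to 0.041; adjusted p = 0.194, edgeR), and it was -0.19 without treated library 3 (adjusted p = 0.0161). The antisense gene APOA1-AS, which shares 123 of its exon bases, had 11 to 19 counts in treated and 6 to 12 counts in control libraries. Within a library, the log2 ratio of APOA2 over APOA1 was 0.43, 0.24 and 0.47 in treated libraries and -0.77, -0.85 and -0.86 in control libraries. APOA2 thus stood above APOA1 in every treated library and below it in every control library. The ratio was 2.31-fold higher in treated libraries (exact permutation test, 2-sided p = 0.10, the smallest that 3 against 3 libraries allow; adjusted p = 0.30 over 6 ratios).

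APOA4, APOC3 and APOA5 lie beside APOA1 on chromosome 11, and among these 4 neighbouring genes APOA4 alone passed the test. Apolipoprotein A-IV is made mainly by the intestine in humans and is carried on chylomicrons and HDL. APOA4 (ENSG00000110244, 116820700 to 116823306, minus strand) had 263, 226 and 511 counts in treated libraries, against 77, 78 and 58 counts in control libraries. Its levels were 11.1, 9.43 and 17.1 FPKM in treated libraries and 2.81, 2.84 and 2.60 FPKM in control libraries. The groups did not overlap, although treated library 3 stood well above the other treated libraries. The log2 fold change was 2.16 (SE 0.20; adjusted p = 8.23e-07, edgeR), or 4.47-fold, and 1.85 without treated library 3. The antisense gene AP006216.3 shares 635 bases (43.1%) of APOA4's exons in GENCODE 29, and the strand setting of the counting is not given in the sources used here; AP006216.3 itself had 0 or 1 count in every library.

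APOC3 (ENSG00000110245, 116829706 to 116833072, plus strand) encodes an inhibitor of lipoprotein lipase. It had 54.4, 66.9 and 75.5 FPKM in treated libraries, against 61.8, 76.2 and 73.9 FPKM in control libraries. The groups overlapped, and library 1 was again the lowest in both. Its log2 fold change was -0.14 (95% interval -0.36 to 0.085; adjusted p = 0.289, edgeR), and -0.26 without treated library 3 (adjusted p = 0.00948). APOA5 (ENSG00000110243, 116789367 to 116792420, minus strand), whose protein lowers plasma triglyceride, had 5.83, 6.26 and 8.10 FPKM in treated libraries, against 5.37, 6.69 and 6.15 FPKM in control libraries. Only treated library 3 lay outside the control range. Its log2 fold change was 0.12 (95% interval -0.16 to 0.40; adjusted p = 0.464, edgeR) and changed sign to -0.049 without treated library 3.

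**Figure D2:**
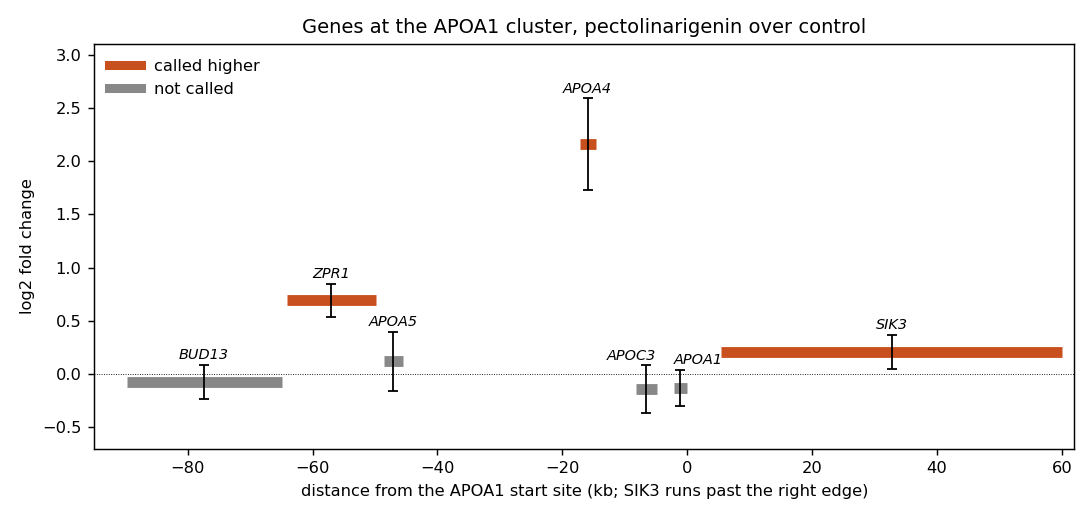
Log2 fold change (pectolinarigenin over control) of genes at the APOA1 cluster by distance from the APOA1 start site in kb; thick bars span each gene (SIK3 runs past the edge) and whiskers are 95% intervals. APOA4 at 2.16 stands above APOA1, APOC3 and APOA5, whose intervals include 0, and ZPR1 and SIK3 at the edges are called higher at 0.70 and 0.21.

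Ratios within a library, which do not depend on how libraries are scaled, gave the same picture of the cluster. The log2 ratio of APOA4 over APOA1 was -5.62, -6.14 and -5.31 in treated libraries and -7.74, -7.92 and -8.03 in control libraries, a 4.6-fold higher ratio in treated cells (exact permutation p = 0.10, adjusted p = 0.30). The log2 ratio of APOC3 over APOA1 averaged -3.28 ± 0.091 in treated and -3.26 ± 0.057 in control libraries (SD, n = 3 each), a difference of -0.019 with overlapping groups (exact permutation p = 0.90, adjusted p = 0.90). APOA5 over APOA1 differed by 0.23 (exact permutation p = 0.20, adjusted p = 0.40), and by 0.15 without treated library 3 and 0.32 without treated library 2. None of these ratio tests could reach 0.05, since 0.10 is the smallest p for 3 against 3 libraries. The 3 nearest protein-coding genes outside the cluster were taken on each side, and some lie far from it. ZPR1, a zinc finger protein gene 1317 bases from APOA5, rose by 0.70 (SE 0.071). SIK3, a salt-inducible kinase gene 5452 bases from APOA1, rose by 0.21 (SE 0.074). The adhesion molecule gene CADM1, 1284410 bases from APOA5, rose by 0.21 (SE 0.078). PAFAH1B2 and SIDT2 lie 306317 and 340783 bases from APOA1, and BUD13 16379 bases from APOA5. SIDT2 changed by -0.36 (SE 0.090) and PAFAH1B2 by -0.19 (SE 0.058), both called lower, and BUD13 was not called at -0.070 (SE 0.076; edgeR throughout). The calls of SIK3 and CADM1 were lost without treated library 1 (0.12 and 0.16) or any 1 control library, and that of PAFAH1B2 without treated library 2 or control library 1 (-0.16 each).

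APOB and MTTP are the structural protein of VLDL and the protein that loads it with lipid, and only MTTP was lower in every treated library than in every control library. MTTP (ENSG00000138823, chromosome 4, 99563761 to 99623999, plus strand) had 77.8, 75.8 and 72.0 FPKM in treated libraries, against 101.2, 93.6 and 95.8 FPKM in control libraries. The means were 75.2 ± 2.90 FPKM in treated and 96.9 ± 3.92 FPKM in control libraries (SD, n = 3 each), and the groups did not overlap. The log2 fold change was -0.40 (SE 0.056; adjusted p = 3.0e-05, edgeR), a change of -24.5%, and it ranged from -0.43 to -0.36 over the 15 alternatives.

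APOB (ENSG00000084674, chromosome 2, 21001429 to 21044073, minus strand) had 438.9, 354.5 and 304.6 FPKM in treated libraries, against 432.7, 419.4 and 412.3 FPKM in control libraries. Treated library 1 was the highest of all 6 libraries and treated library 3 the lowest, so the groups overlapped. The treated libraries varied by 18.6% (coefficient of variation) and the control libraries by 2.47%. The log2 fold change was -0.24 (SE 0.094; adjusted p = 0.0432, edgeR). Leaving out treated library 1 moved it to -0.39 (adjusted p = 0.00011, edgeR) and leaving out treated library 3 to -0.13 (adjusted p = 0.0796, edgeR). Leaving out any 1 control library or treated library 2 also ended the call (adjusted p = 0.0879 to 0.151, edgeR). APOB is a very long transcript, with 14828 bases of exons. For 1506 tested genes of more than 10000 bases, the median log2 level relative to the control mean was taken in each library. It was -0.039, -0.13 and -0.18 in treated libraries 1 to 3 and -0.014 to 0.022 in control libraries. Over 1923 genes under 1500 bases it was -0.021 to 0.011 in treated libraries and -0.0062 to 0.0064 in control libraries. APOB had the same order over the treated libraries, but in FPKM its value in treated library 1 was above every control library. In a fit with an offset for gene length, chosen after these values were seen, APOB was at -0.11 (adjusted p = 0.198, edgeR) and MTTP at -0.43 (adjusted p = 5.4e-06, edgeR). The offset was fitted to the trend with gene length in these same libraries. It removes any length-linked difference between the groups, whatever its source, so this fit cannot tell a cause. Whether gene length has a part in the APOB change was not tested. The log2 ratio of MTTP over APOB was -2.50, -2.22 and -2.08 in treated libraries and -2.09, -2.16 and -2.10 in control libraries, with overlapping groups (difference -0.15, exact permutation p = 0.40, adjusted p = 0.48). The difference was -0.031 without treated library 1 and -0.24 without treated library 3 (exact permutation p = 0.70 and p = 0.10), so its size rests on single treated libraries, and the test could not have passed at this number of libraries.

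**Figure D3:**
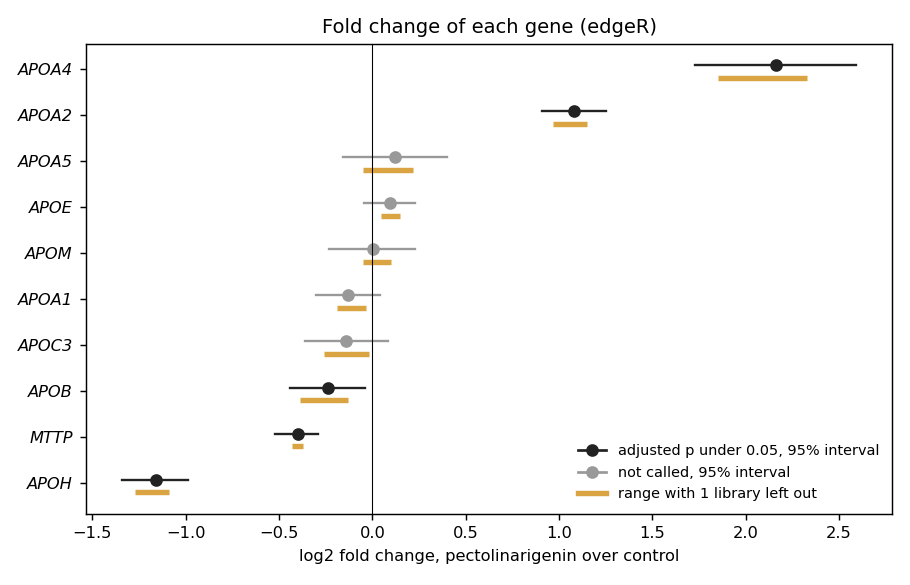
Log2 fold change of each gene (edgeR, pectolinarigenin over control) with its 95% interval, and the range of the value with 1 library left out. APOA4, APOA2, MTTP and APOH keep their sign and call throughout, whereas APOB runs from -0.39 to -0.13.

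Among APOE, APOH and APOM, the remaining genes of the 10, only APOH passed the test, and it was the gene that fell furthest of the 10. APOH (ENSG00000091583, chromosome 17, 66212033 to 66256525, minus strand), also called beta-2-glycoprotein I, binds anionic phospholipid and is a target of antiphospholipid antibodies. It had 59.5, 77.5 and 64.2 FPKM in treated libraries, against 141.3, 154.7 and 143.0 FPKM in control libraries. The highest treated value was far below the lowest control value. The means were 67.1 ± 9.36 FPKM in treated and 146.3 ± 7.27 FPKM in control libraries (SD, n = 3 each). The log2 fold change was -1.16 (SE 0.080; adjusted p = 4.36e-08, edgeR). Albumin (ALB), the plasma protein used as a hepatocyte marker, had a log2 fold change of -0.67 (SE 0.066) in the same fit.

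APOE (ENSG00000130203, chromosome 19, 44905754 to 44909393, plus strand), the ligand of the LDL receptor on remnant particles, had 432.5, 490.6 and 474.6 FPKM in treated libraries, against 394.1, 442.1 and 439.2 FPKM in control libraries. The groups overlapped by treated library 1. Its log2 fold change was 0.095 (95% interval -0.044 to 0.23; adjusted p = 0.241, edgeR), and 0.15 without treated library 1 (adjusted p = 0.0442). APOE over APOB had log2 ratios of -0.021, 0.47 and 0.64 in treated libraries and -0.13, 0.076 and 0.091 in control libraries, a difference of 0.35 with overlapping groups (exact permutation p = 0.30, adjusted p = 0.45). It was 0.54 without treated library 1 and 0.21 without treated library 3 (exact permutation p = 0.10 and p = 0.40). APOM (ENSG00000204444, chromosome 6, 31652416 to 31658210, plus strand), which carries sphingosine-1-phosphate on HDL, had 9.92, 12.5 and 12.1 FPKM in treated libraries, against 10.5, 11.7 and 11.5 FPKM in control libraries. Its log2 fold change was 0.0014 (95% interval -0.23 to 0.23; adjusted p = 0.992, edgeR). BAG6 shares 136 exon bases (8.19%) with APOM on the opposite strand and had 3226 to 3757 counts in treated and 3156 to 3939 counts in control libraries.

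The order of the levels changed at the top. In treated cells APOA2 led with 829.2 FPKM, followed by APOA1 (636.6 ± 72.1 FPKM), APOE (465.9 ± 30.0 FPKM) and APOB (366.0 ± 67.9 FPKM), whereas in control cells APOA1 led with 678.0 ± 49.4 FPKM, followed by APOE (425.2 ± 26.9 FPKM), APOB (421.5 ± 10.4 FPKM) and APOA2 (382.3 ± 15.7 FPKM; SD, n = 3 each). The libraries of APOE and APOB overlapped in each group. Within a library, APOE was below APOB in library 1 of both groups and above it in libraries 2 and 3 of both, so their order was not the same in every library. Below them in treated cells came MTTP (75.2 FPKM), APOH (67.1 FPKM) and APOC3 (65.6 ± 10.6 FPKM), whose libraries overlapped one another, then APOA4 (12.6 ± 4.03 FPKM) and APOM (11.5 ± 1.39 FPKM), which overlapped too, and APOA5 (6.73 ± 1.21 FPKM). In control cells APOH was followed by MTTP, APOC3 (70.6 ± 7.76 FPKM), APOM (11.2 ± 0.672 FPKM), APOA5 (6.07 ± 0.664 FPKM) and, lowest, APOA4 (2.75 ± 0.131 FPKM), with no overlap between neighbours. Among all genes of the table ranked by mean FPKM, APOA2 stood at rank 26 in treated and 59 in control cells, APOA4 at 3620 in treated and 9299 in control cells, and APOH at 516 in treated and 174 in control cells. The 7 genes APOA1, APOA2, APOA5, APOC3, APOE, APOH and APOM were lowest in library 1 of both groups, whereas APOB and MTTP were highest there. These levels rest on the gene lengths behind the deposited FPKM, which were 77.0% of the GENCODE 29 exon length for APOA1 and 74.5% for APOM and 94.9% to 104.0% for the other 8 genes.

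The 10 genes summed to 2390, 2559 and 2660 FPKM in treated libraries, against 2135, 2311 and 2276 FPKM in control libraries, without overlap. As a share of all counts they made up 0.932%, 0.839% and 0.776% in treated libraries and 0.908%, 0.910% and 0.897% in control libraries, with overlap and the opposite direction of the means. APOB, the longest of these transcripts, supplied most of the counts in every library. APOA2 took 32.6 ± 2.60% of the summed FPKM in treated and 17.1 ± 0.0577% in control libraries (SD, n = 3 each), and APOH took 2.64 ± 0.337% in treated and 6.53 ± 0.219% in control libraries.

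**Figure D4:**
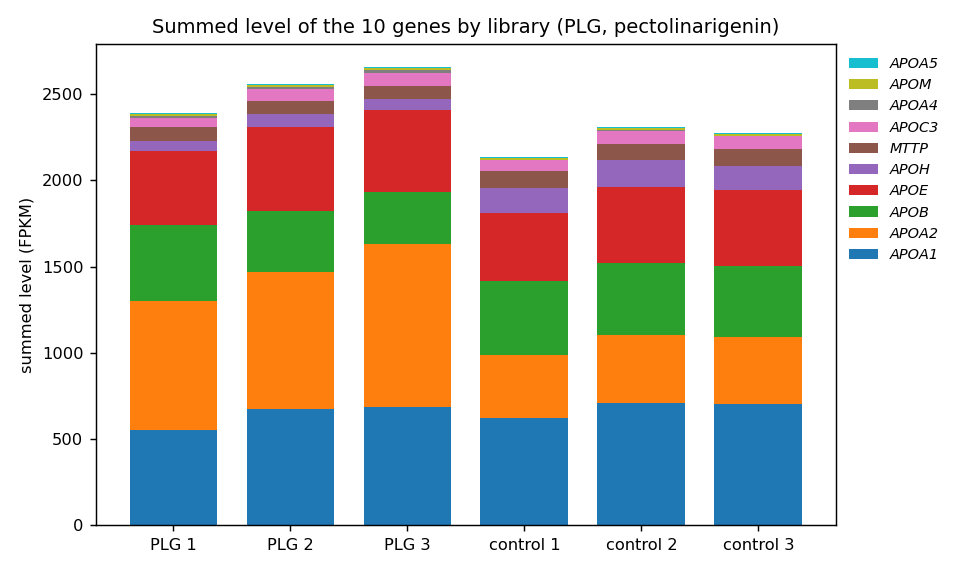
Summed level of the 10 genes (FPKM, stacked) in each pectolinarigenin (PLG) and control library. Treated libraries reach 2390 to 2660 and control libraries 2135 to 2311, and the APOA2 segment is the one that is visibly larger in treated libraries.

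Other genes of the pathway were read from lists chosen with earlier results of these data known. Of 20 genes of VLDL assembly and export from the endoplasmic reticulum, 19 were tested. Of these, 14 were called lower and 3 higher, with a median log2 fold change of -0.24. Over all tested genes 25.3% were called in each direction. Apart from TM6SF2, SMLR1 and TTC39B, the 11 others called lower fell by 0.13 to 0.44 on the log2 scale, and the number called lower was 10 to 14 in the alternatives. TM6SF2, a membrane protein that promotes VLDL lipidation, had 1.62, 1.96 and 1.35 FPKM in treated libraries, against 3.63, 3.53 and 2.45 FPKM in control libraries (log2 fold change -1.02, SE 0.18; adjusted p = 0.000304, edgeR). SMLR1 fell by 0.86 (SE 0.094), TTC39B, which affects nuclear oxysterol receptor levels, by 0.62 (SE 0.11) and SEC24D, a cargo adaptor of the COPII coat, by 0.44 (SE 0.066) on the log2 scale. SAR1B, the GTPase that starts COPII coats for large lipoproteins, fell by 0.24 (SE 0.062), TMEM41B by 0.36 (SE 0.058), and P4HB, the protein disulfide isomerase that is the partner subunit of MTTP, by 0.14 (SE 0.055), a call lost without treated library 2, control library 2 or control library 3 (-0.15, -0.13 and -0.12).

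The 3 that rose were VMP1, a phospholipid scramblase of the endoplasmic reticulum (0.59, SE 0.053), and the chaperones HSPA5 (0.58, SE 0.065) and CANX (0.42, SE 0.053). HSPA5 had 130.2, 134.9 and 150.9 FPKM in treated libraries, against 88.3, 92.4 and 91.0 FPKM in control libraries, with no overlap. SURF4, a cargo receptor (0.077, SE 0.055), and MIA3 (-0.056, SE 0.064) did not pass, and CIDEB was too low to be tested.

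Of 16 other apolipoproteins and HDL proteins 6 were tested, with 1 called higher, 2 lower and a median of -0.25. The share of all tested genes called was 25.3% in each direction. APOC1, which lies beside APOE and inhibits lipase and lipid transfer, had 210.6, 244.8 and 249.5 FPKM in treated libraries, against 201.0, 198.6 and 205.1 FPKM in control libraries. Its log2 fold change was 0.18 (SE 0.066; adjusted p = 0.0304, edgeR), a call that was lost without treated library 2 (0.16), treated library 3 (0.13) or any 1 control library (0.17 to 0.19). Clusterin, CLU, an extracellular chaperone also known as apolipoprotein J, fell by 0.28 (SE 0.056) and APOL6 by 0.39 (SE 0.063) on the log2 scale. APOC2, the activator of lipoprotein lipase, did not pass at -0.26 (SE 0.15), and its reads can be shared with the read-through gene APOC4-APOC2 (-0.46, SE 0.10). The 10 others were below a mean of 1 FPKM.

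Of 25 transcription factors known to bind or regulate apolipoprotein genes 23 were tested, with 10 called lower, 5 higher and a median of -0.16. The 5 called higher are near the share of all tested genes called in that direction, 25.3%, which is also the share called lower. HNF4A, a nuclear receptor required for hepatic expression of many apolipoproteins, fell to 25.9 ± 0.731 FPKM in treated libraries, against 30.6 ± 1.72 FPKM in control libraries (SD, n = 3 each; log2 fold change -0.28, SE 0.058; adjusted p = 0.000889, edgeR). The bile acid receptor NR1H4 fell by 0.68 (SE 0.058), the orphan receptor NR2F1 by 0.72 (SE 0.056) and the pioneer factor FOXA1 by 0.59 (SE 0.064) on the log2 scale. ONECUT1 had 14.5, 11.4 and 8.68 FPKM in treated libraries and 23.2, 22.4 and 22.2 FPKM in control libraries, with no overlap. CREB3L3, a membrane-bound hepatic factor that activates APOA4 in mice, rose to 84.9 ± 2.93 FPKM in treated libraries, against 58.8 ± 1.84 FPKM in control libraries (SD, n = 3 each; log2 fold change 0.49, SE 0.056; adjusted p = 4.7e-06, edgeR). FOXO1, which activates MTTP and APOC3 in the absence of insulin signalling, rose by 0.64 (SE 0.086), and NR0B2, an orphan receptor without a DNA-binding domain, by 0.82 (SE 0.22) on the log2 scale. NR0B2 had 4.71, 4.85 and 7.90 FPKM in treated libraries, against 2.54, 3.96 and 3.29 FPKM in control libraries, and was at 0.51 without treated library 3 (adjusted p = 0.024, edgeR). PPARA, the fatty acid receptor, was not called at -0.020 (SE 0.10).

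**Figure D5:**
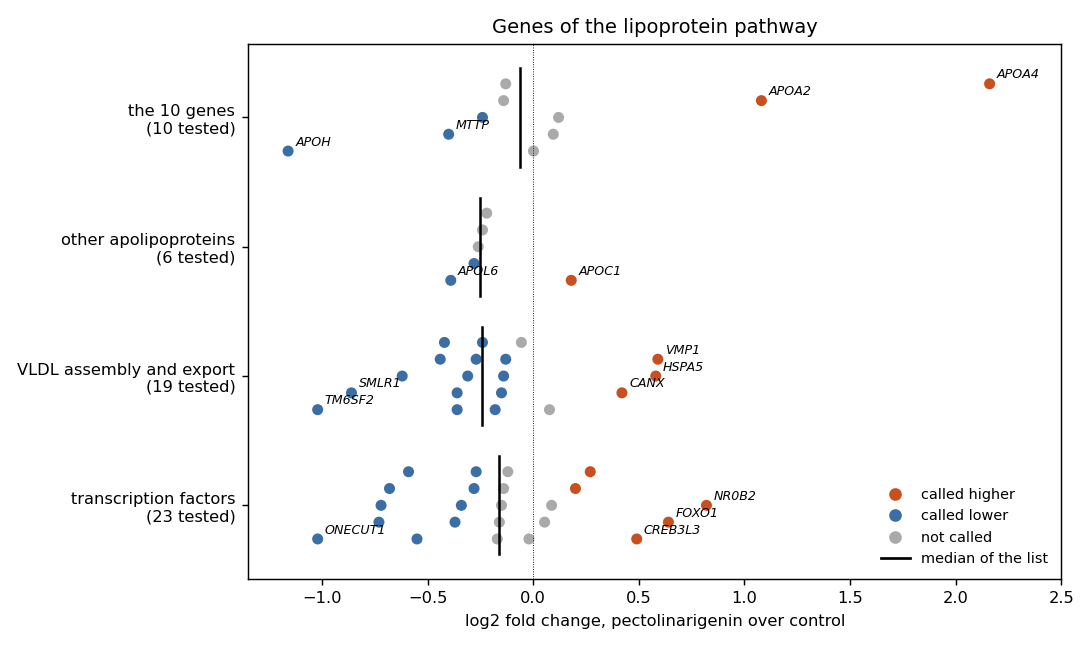
Log2 fold change (pectolinarigenin over control, edgeR) of every tested gene of the 10 genes described and of the 3 pathway lists, coloured by call, with each list's median as a bar. Most points of the VLDL assembly list lie left of 0, with VMP1, HSPA5 and CANX to the right.

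Over the 3 nearest protein-coding genes on each side of each of the 10 genes, 27 of 42 distinct genes were tested, with 7 called higher, 8 lower and a median of 0.080. Both counts are near the share of all tested genes, 25.3% in each direction. KLHL29 (1.04, SE 0.082), HS1BP3 (0.51, SE 0.084), GDF7 (-0.52, SE 0.092) and PRRC2A (-0.49, SE 0.070) had the smallest p together with ZPR1 and APOC4-APOC2. KLHL29 lies 2341144 bases, HS1BP3 350340 bases and GDF7 322184 bases from APOB, and PRRC2A 14645 bases from APOM. Beside APOA2, TOMM40L (0.17, SE 0.093) and NR1I3 (-0.25, SE 0.19) were not called. Beside APOH only PRKCA was tested and it fell by 0.22 (SE 0.074) on the log2 scale, a call lost without treated library 3 (-0.13, adjusted p = 0.0577, edgeR) or any 1 control library (-0.23 to -0.21). Beside MTTP, LAMTOR3 (0.080, SE 0.066) and TRMT10A (0.089, SE 0.11) were not called.

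Likeness to each of the 10 genes was given by Pearson's r of log2(CPM + 1), with TMM factors, over the 6 libraries. The most like gene is given as a description over libraries that share depth and treatment. It was STC2 for APOA4 (r = 0.9998), SARAF for APOA2 (0.9992), POLD3 for APOH (0.9996), CCDC25 for MTTP (0.9991) and ZNF852 for APOB (0.996). Such likeness was common for genes that separate the groups, since 1279 tested genes reached r = 0.95 with APOA2 and 1172 with APOA4, whereas 165 did with APOB and 15 with APOA1, for which the closest was AMBP (0.994). For the other genes not called the closest were SNRPC for APOA5 (0.991), MFSD5 for APOC3 (0.998), RPS28P7 for APOE (0.993) and MED27 for APOM (0.989).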

How the data were processed

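RNA-seq of 6 Huh-7 libraries was used as a table of Ensembl genes. The deposited counts are whole numbers that the authors had not normalized, and the deposited FPKM values are scaled to gene length and library total, per the file headers and from the values. The submitters' processing notes name cutadapt 1.9.1, HISAT2 2.0.1, HTSeq 0.6.1 and GRCh38; the role of each tool, with the strand setting and annotation release, is not given in the sources used here. All 12829 genes with a mean of at least 1 FPKM were tested with the quasi-likelihood test of edgeR 4.0.16 in R 4.3.3 (TMM factors, no covariate, 2-sided), with Benjamini-Hochberg adjustment over all of them and a threshold of 0.05. The SE was derived from the F statistic, and 95% intervals use the test's degrees of freedom. Ratios between genes are log2(FPKM + 0.1) differences with exact permutation over libraries. Gene positions come from GENCODE 29 and promoters from RefSeq GRCh38.p14, which matched 7 of the 10 genes (not APOA1, APOB or APOC3). Alternatives used DESeq2 1.42.0 and limma 3.58.1 on log2(FPKM + 1) and log2(FPKM + 0.1), other scalings, filters, a replicate block and each library left out. The fit was tested on simulated data. The genes and lists were chosen with earlier results of these data known. The genes named are the 10, the tested genes with the smallest p of each list in each direction, up to 3 each, the neighbours of the APOA1 cluster and the gene most like each of the 10; other genes named were chosen after their values were seen, and some list members are counted but not reported here by name. Replicates differed by more than sampling noise in every pair (chi-square per degree of freedom 4.51 to 11.1 among treated and 1.53 to 2.73 among control libraries).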

Additional observations from a re-analysis of the deposited data

How the results depend on the processing

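APOA2, APOA4, APOH and MTTP kept their direction and call in all 15 alternatives tried: 0.97 to 1.15 (APOA2), 1.81 to 2.33 (APOA4), -1.27 to -1.09 (APOH) and -0.43 to -0.36 (MTTP) on the log2 scale. APOB lost its call without scaling factors (-0.20), in DESeq2 (-0.24), in limma with either pseudocount (-0.22 each), at a mean of at least 5 FPKM (-0.26) and with a gene-length offset chosen after seeing the data (-0.11), and was -0.39 to -0.13 with 1 library left out; the cause was not tested. With 1 library left out, the genes not called ranged from -0.19 to -0.036 for APOA1, -0.26 to -0.020 for APOC3, 0.045 to 0.15 for APOE, -0.049 to 0.22 for APOA5 and -0.052 to 0.10 for APOM. APOM also changed sign in DESeq2 (-0.00042), at a mean of at least 5 FPKM (-0.014), with the gene-length offset (-0.021) and with the replicate block (-0.0058).

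The labels number libraries 1 to 3 in both groups. Libraries with the same number deviated together only weakly (Pearson's r 0.010 to 0.037 over the tested genes). Each still correlated best with its own number, since unlike numbers gave r of -0.035 to -0.004, a hint from the data and not from the design. Whether a number stands for a shared batch was not tested. With the replicate block 6540 genes were called, against 6486 without it, and 2 of the 10 genes were higher and 3 lower in both. APOC3 over APOA1 was 0.012, 0.0024 and 0.0052 without treated library 1, treated library 2 and control library 2, and -0.071 at its lowest. At a mean of at least 5 FPKM, with 7144 genes tested, 4098 were called (2088 higher, 2010 lower), as were 3 higher and 5 lower neighbours, 1 lower apolipoprotein and 2 higher transcription factors. Part of this drop is genes no longer tested, as KLHL29, HS1BP3, GDF7, APOL6, FOXO1 and NR0B2 had means under 5 FPKM. With 1 library left out, 4 to 6 neighbours were higher and 5 to 8 lower, and 0 to 1 of the other apolipoproteins was higher. Of called genes 56.9% were higher without scaling factors and 57.5% to 57.6% in limma, against 3243 of 6486 in the fit with them. The log2 ratio of the summed levels was 0.18 in FPKM and -0.093 in CPM without TMM factors. Depth limits genes near 3 counts in a library, and the 3 libraries a group limit the ratio tests.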
